A study of Mus musculus with 7 samples.

Results

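The comparison described here is that of SMB21 cells carrying a CRISPR guide against Kif3a (2 libraries) with SMB21 cells carrying a guide against GFP (2 libraries), over all genes, and these are 4 of the 7 libraries of the series. The other 3 libraries came from cells with a guide against Ofd1. SMB21 is a mouse medulloblastoma line on the Ptch1tm1Mps/J background, so every group, the GFP control included, carries a mutant Ptch1. The cells, labelled as adult, grew as neurospheres in a medium with B27, guides were delivered with a lentiCRISPR vector, and RNA was taken 2 weeks after infection. A GFP guide is a control for Cas9 and infection. The guide sequences and whether a library came from a clone or a pool were not in the sources used here, which limits each group as a model of a defined mutation. The labels call the replicates biological, but nothing says that they are separate infections, so the p-values measure only the spread between these libraries. The series design lists 3 GFP replicates, and 2 of them are analysed here. The table listed 24047 gene symbols, of which 12875 had enough counts to be tested.

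Kif3a encodes a motor subunit of heterotrimeric kinesin-2, which carries intraflagellar transport particles from the base to the tip of the primary cilium. In granule neuron progenitors of the cerebellum, from which Hedgehog-driven medulloblastoma arises, the cilium is where loss of Ptch1 frees Smoothened to activate Gli transcription factors. Cells without kinesin-2 cannot build a cilium, and the same pathway then lacks both activated Gli and processed Gli repressors. Kinesin-2 also moves cargo outside the cilium.

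Library totals ran from 17961767 to 23022701 counts, and a count of 3, the limit that a count of 0 allows, was worth 0.130 to 0.167 CPM (a gene's counts scaled by TMM factors to a common library total). That limit covers counting error only. Counts differed between both GFP control libraries by a chi-square per degree of freedom of 3.60 and between both Kif3a CRISPR libraries by 8.61, both above counting error. GFP control replicate 1 held RNA that the other libraries held at far lower levels. Genes with at least 10 counts there and at least 10 times the CPM of any other library, and the myeloid markers, were set aside as foreign RNA: 136 genes, which took 491 ppm of the counts in GFP control replicate 1 and 5.26 to 22.2 ppm in the other 6. Chil3, with 2635 counts there, Cd74, Ccl17 and Mmp12 led them, all products of macrophages and related cells. The 18 myeloid markers summed to 37.9 CPM there and to 2.96 to 5.27 CPM elsewhere, and 16 of the 18 were at 0 in GFP control replicate 2. Erythroid markers were at 0 in every library, fibroblast markers summed to at most 1.30 CPM and endothelial markers to at most 3.78 CPM. Granule neuron progenitor markers summed to 2384 and 2363 CPM in GFP control and to 3132 and 3110 CPM in Kif3a CRISPR. The oligodendrocyte list summed to 275 and 262 CPM in GFP control and to 96.8 and 138 CPM in Kif3a CRISPR, nearly all of it Pdgfra, with Sox10 and Mog at 0. In such bulk libraries, fewer cells of a type and less RNA per cell cannot be told apart.

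Of the 12875 genes tested, 2584 (20.1%) were called at an adjusted p under 0.05, 1183 higher (9.19%) and 1401 lower (10.9%). Of the lower ones 9 were foreign RNA, which leaves 1392. Changes over 2-fold numbered 191 higher and 296 lower after that step. The groups of 2 did not overlap for 8556 tested genes (66.5%), so lack of overlap alone says little here, and calls rest on the spread estimated over all 7 libraries. Leaving out a library changed how many genes were called: 220 of the rises and 370 of the falls were called in the same direction in all 7 fits that each left out 1 library. Without Kif3a CRISPR replicate 1, 281 genes were called higher and 405 lower, and without Kif3a CRISPR replicate 2 the counts were 754 and 973. They were 430 and 670 without GFP control replicate 1, and 466 and 896 without GFP control replicate 2. Of the 2575 called genes left after foreign RNA, 1931 differed more from the GFP control mean in Kif3a CRISPR replicate 1 and 644 in replicate 2. The median difference of the called rises was 0.49 in replicate 1 and 0.42 in replicate 2, and that of the called falls was -0.60 and -0.50.

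**Figure D1:**
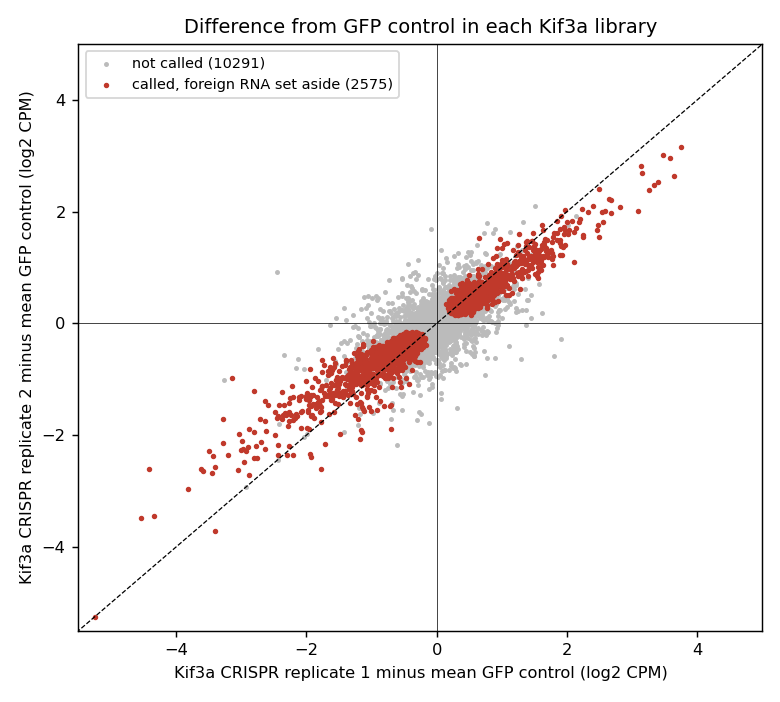
Each point is a tested gene, with its difference from the mean of the 2 GFP control libraries in Kif3a CRISPR replicate 1 (x axis) and replicate 2 (y axis), in log2 CPM, red where called (2575 genes) and grey where not, and the dashed line marks equal differences. The red points follow the line in both directions but lie more often farther out on the x axis, 1931 against 644 genes.

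Beside each count of family members below, left-out counts are those without GFP control replicates 1 and 2 and then Kif3a CRISPR replicates 1 and 2, in this order, and a fit without an Ofd1 CRISPR library, or with library totals alone in place of TMM factors, is added only where it moved a count by over 1.5 times. Without GFP control replicate 2 the only control left held the foreign RNA, so falls counted there can include foreign genes. The lists held 17 such genes among cytokines, 7 among G protein-coupled receptors, 4 among proteases, 2 among integrins and 1 among receptor tyrosine kinases. Families were collected by symbol, which brings in a few look-alikes. Examples are Ptgfrn among the receptors, Gpatch3 among lipid enzymes and Rab30, Rab31 and Rab36 among synaptic proteins. Several families were called at shares near the 20.1% of all tested genes, so their counts alone say little about the family. These were kinesins and dyneins (22.6%), cadherins and protocadherins (24.2%), integrins (17.6%), and histone and DNA modifying enzymes (21.2%). Others were respiratory chain genes (19.8%), the tricarboxylic acid cycle (16.7%), other solute carriers (22.8%), synaptic proteins (24.7%), and collagens and laminins (25%). Shares further from 20.1% included glycolysis (59.5%), serine, glycine and folate enzymes (52.4%), secreted growth factors (45.3%), imprinted genes (36%) and cytokines (35.5%, foreign RNA included). Nuclear receptors stood at 31.2%, mitochondrial ribosomal proteins at 11.7%, ABC transporters at 9.68% and nucleotide synthesis at 7.5%. Granule neuron progenitor markers stood at 62.5% and Hedgehog medulloblastoma markers at 83.3%. These differences were not tested. A value in parentheses after a gene is its log2 fold change, Kif3a CRISPR minus GFP control. SE is the standard error of such a value. Where leaving out a library ended the call, that library and the adjusted p without it follow. Genes named by size, adjusted p or family had to have groups that did not overlap. A gap between the groups stated for them below was therefore fixed in advance and is no support.

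Kif3a, the target of the guide, stood at 104 and 104 CPM in GFP control and at 73.9 and 60.5 CPM in Kif3a CRISPR. It fell by 0.63 in log2 (SE 0.0929, adjusted p = 0.000854). Both Kif3a CRISPR libraries lay below both controls, with replicate 2 lower. In the direct comparison of the Kif3a and Ofd1 guides Kif3a was not called, so its fall was not shown to be particular to the Kif3a guide. Of the 62 tested kinesin and dynein genes, 5 rose and 9 fell, and the left-out counts were 0, 0, 0 and 3 higher and 4, 3, 3 and 6 lower (9 and 10 without Ofd1 replicate 1, 3 and 9 without Ofd1 replicate 2, 8 and 11 without Ofd1 replicate 3). Kifc3, a minus-end kinesin, stood at 16.2 and 17.8 CPM in GFP control and at 6.44 and 7.87 CPM in Kif3a CRISPR. It fell by 1.26 in log2 (SE 0.149, adjusted p = 0.000213). Dync1li1 (-0.48) and Dnal4 (-0.32, lost without GFP control replicate 1 at 0.0951, GFP control replicate 2 at 0.0687 or Kif3a CRISPR replicate 1 at 0.0934), subunits of dyneins, also fell. Of 68 tested genes for intraflagellar transport, the BBSome and the transition zone, 6 rose and 8 fell, and the left-out counts were 1, 1, 1 and 4 higher and 2, 4, 1 and 4 lower. That share (20.6%) stood at the background of 20.1%. Among them Tmem107 (-0.63) and Nphp4 (-0.50, lost without Kif3a CRISPR replicate 1 at 0.0819), transition zone proteins, fell and Ift74 (0.53, lost without Kif3a CRISPR replicate 1 at 0.0715), a transport particle subunit, rose.

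**Figure D2:**
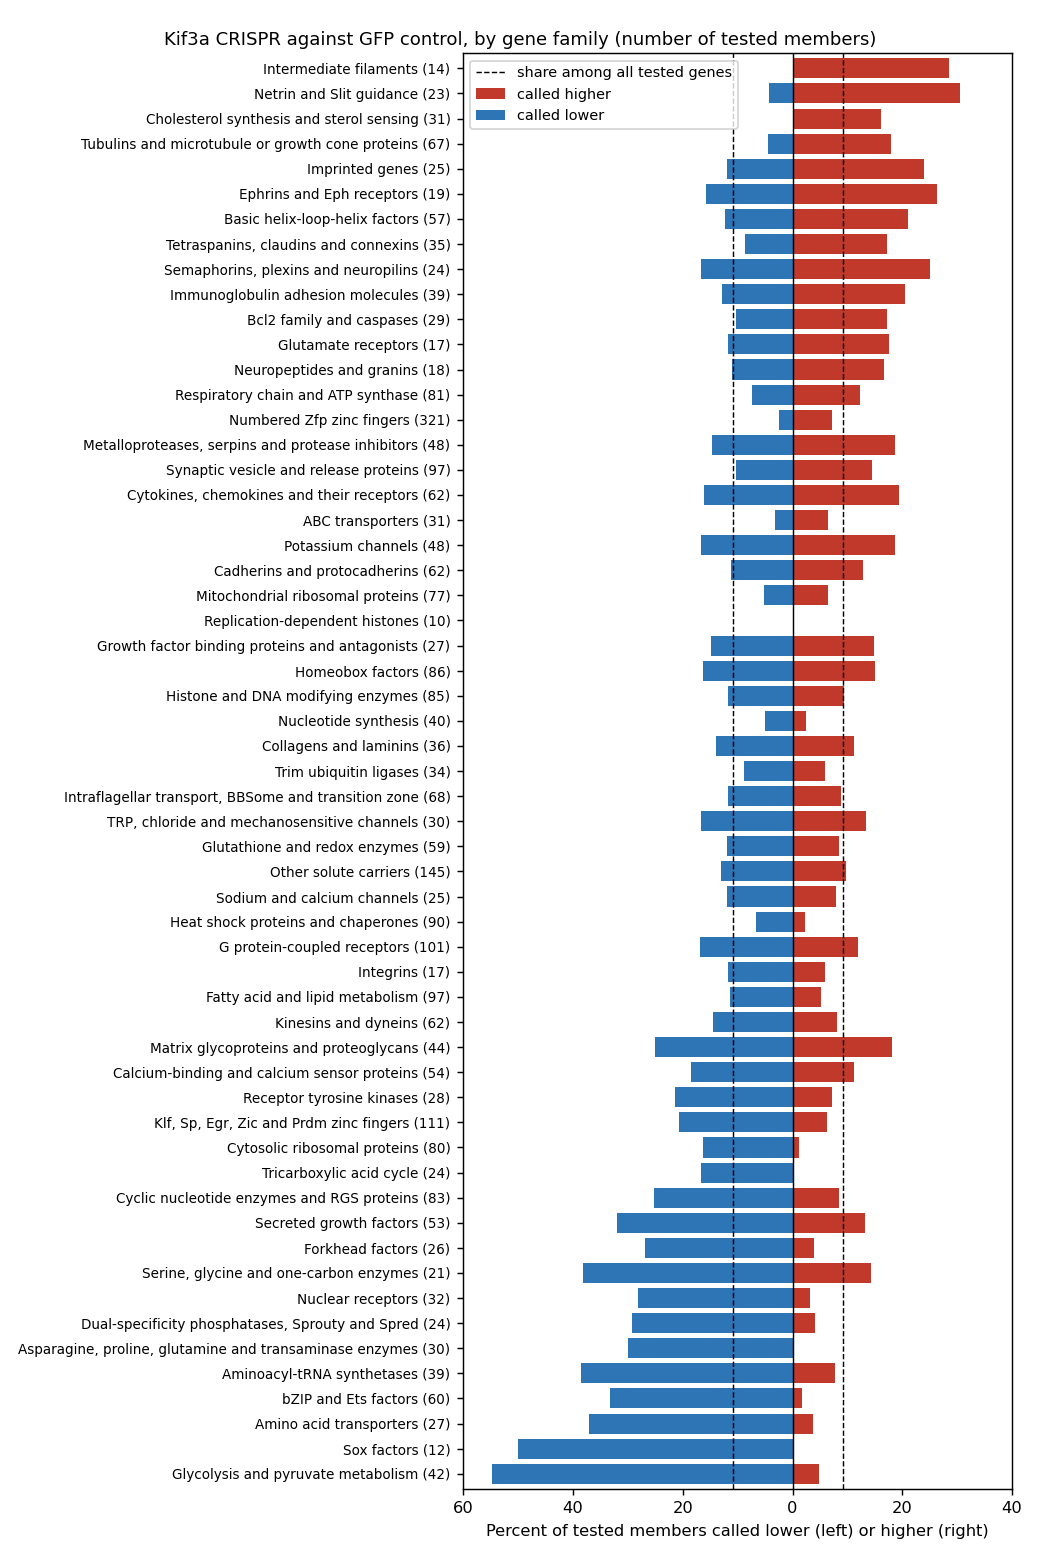
Bars give the percent of tested members called higher (red, right) or lower (blue, left) in Kif3a CRISPR against GFP control, for each gene family with at least 10 tested members, whose number stands in parentheses. Dashed lines mark the shares among all tested genes, 9.19% higher and 10.9% lower. Glycolysis genes reach farthest to the left with 23 of 42 lower.

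Of 32 tested nuclear receptors, 1 rose and 9 fell, and the left-out counts were 1, 0, 0 and 1 higher and 7, 7, 5 and 7 lower (2 and 9 without Ofd1 replicate 1, 4 and 9 without Ofd1 replicate 3, 3 and 9 with library totals alone). Nr4a1, an orphan receptor induced early by growth and calcium signals, stood at 106 and 94.2 CPM in GFP control and at 13.5 and 15.2 CPM in Kif3a CRISPR. It fell by 2.80 in log2 (SE 0.164, adjusted p = 8.42e-06). Nr4a3, its relative, stood at 6.68 and 7.87 CPM in GFP control and at 1.43 and 1.51 CPM in Kif3a CRISPR. It fell by 2.31 in log2 (SE 0.239, adjusted p = 0.000105). Rora, the retinoid-related orphan receptor that guides cerebellar development, stood at 32.0 and 29.5 CPM in GFP control and at 16.1 and 12.2 CPM in Kif3a CRISPR. It fell by 1.11 in log2 (SE 0.130, adjusted p = 0.000198). In all 3 the Kif3a CRISPR libraries lay below both controls. Nr4a2 (-0.68) and Thra (-0.71), a thyroid hormone receptor, also fell. Nr4a2 was not among the genes named by rule and was chosen after its value was seen. Vdr was called lower too, but stood at 2.46 and 0.601 CPM in the GFP control libraries, an uneven pair.

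Of 60 tested bZIP and Ets factors, 1 rose and 20 fell, and the left-out counts were 1, 0, 0 and 1 higher and 13, 16, 10 and 17 lower (2 and 23 without Ofd1 replicate 1). Cebpb, a CCAAT/enhancer-binding factor, stood at 35.2 and 37.4 CPM in GFP control and at 6.39 and 9.0 CPM in Kif3a CRISPR. It fell by 2.25 in log2 (SE 0.147, adjusted p = 8.42e-06). Maff, a small Maf partner protein, stood at 20.4 and 16.8 CPM in GFP control and at 2.25 and 4.26 CPM in Kif3a CRISPR. It fell by 2.55 in log2 (SE 0.260, adjusted p = 9.67e-05). Atf5, a stress-responsive activator, stood at 456 and 527 CPM in GFP control and at 40.6 and 78.1 CPM in Kif3a CRISPR. It fell by 3.06 in log2 (SE 0.304, adjusted p = 7.97e-05). For these 3 both Kif3a CRISPR libraries lay below both controls. Ddit3 (-1.32), a factor of the stress response, fell as well. Among the early-response zinc fingers Egr3 stood at 5.65 and 5.51 CPM in GFP control and at 0.821 and 1.40 CPM in Kif3a CRISPR. It fell by 2.35 in log2 (SE 0.339, adjusted p = 0.000736). In the wider group of Klf, Sp, Egr, Zic and Prdm zinc fingers (111 tested), 7 rose and 23 fell, and the left-out counts were 5, 6, 2 and 6 higher and 10, 18, 5 and 17 lower. Casz1, a zinc finger of neuron and heart differentiation, stood at 0.344 and 0.401 CPM in GFP control and at 4.88 and 2.64 CPM in Kif3a CRISPR. It rose by 3.33 in log2 (SE 0.552, adjusted p = 0.00169). Zic4 (0.74), a cerebellar factor, rose, and Sall1 (-0.50) and Klf13 (-0.66) fell.

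Sox factors moved in the lower direction only: of 12 tested, 0 rose and 6 fell, and the left-out counts were 0, 0, 0 and 0 higher and 6, 6, 2 and 6 lower. Sox2, a factor of neural stem and progenitor cells, stood at 56.2 and 57.2 CPM in GFP control and at 30.9 and 34.6 CPM in Kif3a CRISPR. It fell by 0.79 in log2 (SE 0.0848, adjusted p = 0.000129). Sox9, which marks glia and stem cells, stood at 224 and 232 CPM in GFP control and at 123 and 138 CPM in Kif3a CRISPR. It fell by 0.80 in log2 (SE 0.101, adjusted p = 0.000340). Sox1 (-0.63, lost without Kif3a CRISPR replicate 1 at 0.0746) and Sox8 (-0.57, lost without Kif3a CRISPR replicate 1 at 0.0701) fell with them, and the median of the 12 was -0.43, against 0.01 over all tested genes. Sox2 and Sox9 are among the 6 astrocyte and stem cell markers. These 6 summed to 475 and 480 CPM in GFP control and to 381 and 351 CPM in Kif3a CRISPR. Of the 4 tested, 0 rose and 2 fell, and the left-out counts were 0, 0, 0 and 0 higher and 2, 2, 2 and 2 lower (1 and 3 without Ofd1 replicate 1). Gfap, an astrocyte filament protein, stood at 43.3 and 43.4 CPM in GFP control and at 92.1 and 59.0 CPM in Kif3a CRISPR, a difference of 0.81 that did not pass (adjusted p = 0.203). Slc1a3, a glial glutamate transporter, stood at 152 and 148 CPM and at 134 and 119 CPM (adjusted p = 0.0970), and Aqp4, an astrocyte water channel, was at 0 in every library. The part of glial cells in the Sox falls was not tested. Of 26 tested forkhead factors, 1 rose and 7 fell, and the left-out counts were 1, 1, 0 and 2 higher and 5, 5, 1 and 5 lower (2 and 8 without Ofd1 replicate 1). Foxo6, a neuronal FoxO factor, stood at 90.4 and 95.5 CPM in GFP control and at 27.4 and 42.5 CPM in Kif3a CRISPR. It fell by 1.42 in log2 (SE 0.207, adjusted p = 0.000778). Foxf2 (-1.07, lost without Kif3a CRISPR replicate 1 at 0.0574) and Foxc1 (-0.77, lost without Kif3a CRISPR replicate 1 at 0.0528) fell and Foxj1 (1.20, lost without Kif3a CRISPR replicate 1 at 0.119), a factor of motile cilia, rose.

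Basic helix-loop-helix and homeobox factors moved both ways. Of 57 tested helix-loop-helix genes, 12 rose and 7 fell, and the left-out counts were 5, 5, 3 and 10 higher and 4, 3, 2 and 5 lower. Atoh1, the factor that defines granule neuron progenitors, stood at 364 and 388 CPM in GFP control and at 567 and 549 CPM in Kif3a CRISPR. It rose by 0.57 in log2 (SE 0.0999, adjusted p = 0.00232). Hey1, a Notch-responsive repressor, stood at 72.5 and 62.5 CPM in GFP control and at 217 and 166 CPM in Kif3a CRISPR. It rose by 1.50 in log2 (SE 0.196, adjusted p = 0.000396). Mycn (-0.56), the Hedgehog-responsive Myc protein, and Mxi1 (-0.55) fell, and Bhlhe22 (0.70) rose. Of 86 tested homeobox factors, 13 rose and 14 fell, and the left-out counts were 7, 11, 5 and 10 higher and 7, 6, 3 and 7 lower. Pax6, which is needed for granule neuron development, stood at 131 and 129 CPM in GFP control and at 271 and 238 CPM in Kif3a CRISPR. It rose by 0.97 in log2 (SE 0.0936, adjusted p = 7.23e-05). Meis1 (0.55) and Otx2 (0.59), also expressed in granule progenitors, rose and Lhx2 (-0.57) fell. The homeobox rises include Zfhx2os, an antisense transcript whose reads cannot be told from those of Zfhx2. Of the 8 granule neuron progenitor markers, 5 rose and 0 fell, and the left-out counts were 4, 5, 4 and 5 higher and 0, 0, 0 and 0 lower, Atoh1, Pax6 and Meis1 among them. Of the 6 Hedgehog medulloblastoma markers, 0 rose and 5 fell, and the left-out counts were 0, 0, 0 and 0 higher and 4, 4, 2 and 5 lower, such as Ptch1 (-1.25), whose mutant allele every group carries, and Ccnd1 (-0.64, lost without Kif3a CRISPR replicate 1 at 0.103), a cyclin.

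The numbered Zfp genes, mostly KRAB zinc finger repressors, gave few calls: of 321 tested, 23 rose and 8 fell, and the left-out counts were 5, 7, 3 and 20 higher and 2, 3, 0 and 8 lower. These were 9.66% of the tested members, beside 20.1% of all genes, and the difference was not tested. Zfp35 (0.45), Zfp672 (0.53) and Zfp68 (0.41, lost without Kif3a CRISPR replicate 1 at 0.0601) rose and Zfp36l2 (-0.53, lost without Kif3a CRISPR replicate 1 at 0.0587), an RNA-binding protein rather than a transcription factor, fell. Of 34 Trim genes, 2 rose and 3 fell, and the left-out counts were 1, 1, 0 and 3 higher and 2, 3, 1 and 2 lower. Trim66, a chromatin reader, stood at 44.9 and 65.6 CPM in GFP control and at 2.59 and 4.91 CPM in Kif3a CRISPR. It fell by 3.91 in log2 (SE 0.342, adjusted p = 4.10e-05). It was the largest fall among the genes named by rule outside foreign or uneven RNA. Mef2b, a MADS-box factor, stood at 7.57 and 9.07 CPM in GFP control and at 0.691 and 0.539 CPM in Kif3a CRISPR. It fell by 3.73 in log2 (SE 0.285, adjusted p = 1.62e-05). Of 85 histone and DNA modifying enzymes, 8 rose and 10 fell, and the left-out counts were 1, 2, 0 and 4 higher and 7, 7, 7 and 8 lower (13 and 10 with library totals alone). Prmt8 (-1.40), Tet2 (-0.44), Hdac5 (-0.57) and Ezh1 (-0.49) fell.

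Among cyclic nucleotide enzymes, G protein subunits and RGS proteins, of 83 tested, 7 rose and 21 fell, and the left-out counts were 3, 4, 1 and 7 higher and 14, 13, 8 and 13 lower. Pde10a, which hydrolyses cAMP and cGMP, stood at 50.7 and 50.1 CPM in GFP control and at 14.3 and 19.1 CPM in Kif3a CRISPR. It fell by 1.60 in log2 (SE 0.130, adjusted p = 2.23e-05). Pde4b, a cAMP phosphodiesterase, stood at 22.6 and 26.7 CPM in GFP control and at 11.4 and 12.3 CPM in Kif3a CRISPR. It fell by 1.05 in log2 (SE 0.153, adjusted p = 0.000784). Gnao1 (-0.70), a G protein subunit, fell and Gnb3 (1.86) rose. Of 24 dual-specificity phosphatases and Sprouty proteins, which restrain MAP kinase signals, 1 rose and 7 fell, and the left-out counts were 1, 1, 1 and 1 higher and 3, 3, 2 and 4 lower (2 and 7 without Ofd1 replicate 3, 2 and 5 with library totals alone). Dusp4 stood at 22.6 and 22.9 CPM in GFP control and at 6.52 and 8.09 CPM in Kif3a CRISPR. It fell by 1.65 in log2 (SE 0.243, adjusted p = 0.000848). Dusp10 (-0.67, lost without Kif3a CRISPR replicate 1 at 0.0727) and Spred2 (-0.49) fell and Dusp12 (0.47) rose. Of 28 receptor tyrosine kinases, 2 rose and 6 fell, and the left-out counts were 1, 1, 1 and 2 higher and 3, 7, 2 and 4 lower. Pdgfra (-1.26, lost without Kif3a CRISPR replicate 1 at 0.134), Fgfr1 (-0.60) and Fgfr2 (-0.54) fell and Ror1 (0.69), a Wnt receptor, rose. Of 101 tested G protein-coupled receptors (290 in the table), 12 rose and 17 fell, and the left-out counts were 8, 7, 4 and 10 higher and 5, 16, 3 and 10 lower. Vipr1, a receptor for vasoactive intestinal peptide, stood at 4.37 and 3.11 CPM in GFP control and at 22.2 and 13.2 CPM in Kif3a CRISPR. It rose by 2.25 in log2 (SE 0.343, adjusted p = 0.00101). Gipr, the receptor for the gut peptide GIP, stood at 5.95 and 6.71 CPM in GFP control and at 0.561 and 1.35 CPM in Kif3a CRISPR. It fell by 2.77 in log2 (SE 0.338, adjusted p = 0.000266). Adcyap1r1 (0.63), the PACAP receptor, rose and Bai2 (-1.0) (Adgrb2 in newer naming), an adhesion receptor, fell.

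Of 53 tested secreted growth factors, 7 rose and 17 fell, and the left-out counts were 3, 2, 1 and 4 higher and 8, 9, 4 and 11 lower, with a median of -0.27. Vegfa, the main endothelial growth factor, stood at 694 and 723 CPM in GFP control and at 158 and 232 CPM in Kif3a CRISPR. It fell by 1.87 in log2 (SE 0.177, adjusted p = 6.76e-05). Tgfa, a ligand of the EGF receptor, stood at 38.1 and 37.8 CPM in GFP control and at 13.3 and 17.8 CPM in Kif3a CRISPR. It fell by 1.30 in log2 (SE 0.147, adjusted p = 0.000165). Pdgfa, the ligand of Pdgfra, stood at 19.6 and 17.4 CPM in GFP control and at 7.04 and 9.22 CPM in Kif3a CRISPR. It fell by 1.20 in log2 (SE 0.151, adjusted p = 0.000323). The Kif3a CRISPR libraries lay below both controls for each. Apln (-2.48), the apelin peptide, and Gdf15 (-3.38, lost without Kif3a CRISPR replicate 1 at 0.0604), a stress-induced ligand, fell as well. Among binding proteins and antagonists (27 tested), 4 rose and 4 fell, and the left-out counts were 2, 3, 1 and 3 higher and 3, 3, 1 and 5 lower. Igfbp5, which binds insulin-like growth factors, stood at 59.3 and 57.5 CPM in GFP control and at 786 and 524 CPM in Kif3a CRISPR. It rose by 3.49 in log2 (SE 0.325, adjusted p = 6.41e-05). Wif1, a secreted inhibitor of Wnt, stood at 74.1 and 91.2 CPM in GFP control and at 21.1 and 31.6 CPM in Kif3a CRISPR. It fell by 1.66 in log2 (SE 0.219, adjusted p = 0.000429). Hhip (-1.45, lost without Kif3a CRISPR replicate 1 at 0.0964), a Hedgehog inhibitor and target, fell and Ltbp3 (0.81, lost without Kif3a CRISPR replicate 1 at 0.0561) rose.

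Of 18 tested neuropeptide and granin genes, 3 rose and 2 fell, and the left-out counts were 2, 2, 1 and 2 higher and 1, 1, 1 and 2 lower. Stc2, stanniocalcin 2, a secreted hormone, stood at 17.2 and 18.9 CPM in GFP control and at 2.29 and 3.61 CPM in Kif3a CRISPR. It fell by 2.63 in log2 (SE 0.191, adjusted p = 1.44e-05). Pcsk5, a proprotein convertase, stood at 6.39 and 4.91 CPM in GFP control and at 25.8 and 20.00 CPM in Kif3a CRISPR. It rose by 2.02 in log2 (SE 0.206, adjusted p = 9.67e-05). Pcsk7 (0.47, lost without GFP control replicate 1 at 0.0920 or Kif3a CRISPR replicate 1 at 0.0808) and Scg5 (0.44, lost without GFP control replicate 2 at 0.0969, Kif3a CRISPR replicate 1 at 0.0563 or Kif3a CRISPR replicate 2 at 0.0730) rose. Among cytokines, chemokines and receptors (62 tested), 12 rose and 10 fell, and the left-out counts were 3, 3, 2 and 5 higher and 6, 28, 2 and 5 lower, and 2 of the falls are foreign RNA. The count of 28 arose where the only control left was the library with foreign RNA. Ccl22 was also called lower, but its controls were uneven: it stood at 57.8 and 0.150 CPM in the GFP control libraries, and Lsp1 and Tgm2, likewise uneven at 6.88 and 0.852 CPM and 6.24 and 1.15 CPM, share that pattern. These 3 are among the 15 largest falls by the rule although the foreign RNA step did not catch them. Cxcl12, the chemokine that attracts granule progenitors to the meninges, stood at 17.2 and 15.1 CPM in GFP control and at 46.8 and 37.3 CPM in Kif3a CRISPR. It rose by 1.38 in log2 (SE 0.201, adjusted p = 0.000771). Mif (-0.85) fell and Il17ra (0.46) rose.

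Adhesion and guidance genes gave some of the largest rises. Of 19 ephrins and Eph receptors, 5 rose and 3 fell, and the left-out counts were 5, 5, 4 and 5 higher and 2, 1, 0 and 3 lower. Efnb2, a transmembrane ephrin ligand, stood at 10.9 and 9.87 CPM in GFP control and at 31.1 and 25.6 CPM in Kif3a CRISPR. It rose by 1.45 in log2 (SE 0.181, adjusted p = 0.000300). Ephb1, an Eph receptor, stood at 11.0 and 9.12 CPM in GFP control and at 34.2 and 23.9 CPM in Kif3a CRISPR. It rose by 1.54 in log2 (SE 0.215, adjusted p = 0.000623). Efna4 (0.82) and Ephb2 (0.52) rose as well, and for Efnb2 and Ephb1 both Kif3a CRISPR libraries lay above both controls. Of 23 netrin, Slit and related guidance genes, 7 rose and 1 fell, and the left-out counts were 4, 3, 2 and 4 higher and 1, 1, 0 and 1 lower. Unc5a, a netrin receptor, stood at 6.34 and 6.11 CPM in GFP control and at 31.4 and 25.2 CPM in Kif3a CRISPR. It rose by 2.19 in log2 (SE 0.280, adjusted p = 0.000364). Dcc, another netrin receptor, stood at 142 and 144 CPM in GFP control and at 238 and 195 CPM in Kif3a CRISPR. It rose by 0.60 in log2 (SE 0.0890, adjusted p = 0.000881). Robo2 (0.57, lost without Kif3a CRISPR replicate 1 at 0.0766), a Slit receptor, rose and Slit3 (-1.19, lost without Kif3a CRISPR replicate 1 at 0.0701), a ligand, fell. Of 24 semaphorins, plexins and neuropilins, 6 rose and 4 fell, and the left-out counts were 2, 3, 1 and 2 higher and 0, 3, 0 and 1 lower. Sema7a (0.80), Sema5b (0.54, lost without GFP control replicate 1 at 0.101, Kif3a CRISPR replicate 1 at 0.0606 or Kif3a CRISPR replicate 2 at 0.0718) and Sema6a (0.43, lost without GFP control replicate 2 at 0.0647 or Kif3a CRISPR replicate 1 at 0.0612) rose and Sema4d (-0.65, lost without GFP control replicate 1 at 0.0621, Kif3a CRISPR replicate 1 at 0.129 or Kif3a CRISPR replicate 2 at 0.0583) fell.

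Of 39 immunoglobulin adhesion molecules, 8 rose and 5 fell, and the left-out counts were 3, 3, 1 and 5 higher and 5, 5, 3 and 5 lower. Cntn2, a contactin of growing axons, stood at 34.2 and 41.5 CPM in GFP control and at 136 and 116 CPM in Kif3a CRISPR. It rose by 1.73 in log2 (SE 0.210, adjusted p = 0.000257). Ncam1, the neural cell adhesion molecule, stood at 127 and 140.4 CPM in GFP control and at 67.6 and 76.7 CPM in Kif3a CRISPR. It fell by 0.89 in log2 (SE 0.106, adjusted p = 0.000226). Pvrl1 (-0.82) and Islr2 (-1.19) fell, Pvrl1 being the older symbol of Nectin1. Of 62 tested cadherins and protocadherins, 8 rose and 7 fell, and the left-out counts were 5, 4, 3 and 7 higher and 4, 3, 1 and 4 lower. Cdh23, an atypical cadherin of hair cell tip links, stood at 12.5 and 11.5 CPM in GFP control and at 77.1 and 55.7 CPM in Kif3a CRISPR. It rose by 2.47 in log2 (SE 0.275, adjusted p = 0.000153). Pcdh15, its partner at those links, stood at 15.2 and 15.1 CPM in GFP control and at 29.3 and 24.5 CPM in Kif3a CRISPR. It rose by 0.83 in log2 (SE 0.114, adjusted p = 0.000546). Fat4 (0.83), a giant cadherin, rose and Cdh22 (-0.93) fell. Of 17 integrins, 1 rose and 2 fell, and the left-out counts were 1, 1, 1 and 1 higher and 0, 4, 0 and 3 lower. Itga7, a laminin-binding integrin, stood at 57.5 and 66.6 CPM in GFP control and at 140.4 and 123 CPM in Kif3a CRISPR. It rose by 1.08 in log2 (SE 0.162, adjusted p = 0.000899). Itga9 (-0.79, lost without GFP control replicate 1 at 0.0541, GFP control replicate 2 at 0.0537 or Kif3a CRISPR replicate 1 at 0.183) was the named fall.

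Matrix genes moved in both directions. Of 44 tested matrix glycoproteins and proteoglycans, 8 rose and 11 fell, and the left-out counts were 5, 6, 4 and 6 higher and 8, 7, 3 and 9 lower. Cemip, which degrades hyaluronan, stood at 1.03 and 0.852 CPM in GFP control and at 9.16 and 6.63 CPM in Kif3a CRISPR. It rose by 3.07 in log2 (SE 0.304, adjusted p = 7.97e-05). Sulf2, an enzyme that trims sulfate from heparan sulfate, stood at 18.1 and 22.9 CPM in GFP control and at 3.67 and 6.41 CPM in Kif3a CRISPR. It fell by 2.04 in log2 (SE 0.218, adjusted p = 0.000127). Mfap4 (1.41), a matrix protein, rose and Sdc4 (-1.26), a heparan sulfate proteoglycan, fell. Of 48 proteases, serpins and inhibitors, 9 rose and 7 fell, and the left-out counts were 6, 6, 5 and 7 higher and 4, 9, 3 and 5 lower, and 1 of the falls, Mmp12, is foreign RNA. Timp2, an inhibitor of metalloproteases, stood at 3.69 and 2.76 CPM in GFP control and at 11.1 and 8.95 CPM in Kif3a CRISPR. It rose by 1.64 in log2 (SE 0.235, adjusted p = 0.000719). Mmp16 (0.68) and Adamts10 (0.60) rose and Mmp17 (-0.98) fell. Of 36 collagens and laminins, 4 rose and 5 fell, and the left-out counts were 2, 1, 1 and 1 higher and 4, 1, 0 and 3 lower. Col9a3 (0.62), Col18a1 (1.26, lost without GFP control replicate 1 at 0.0657, GFP control replicate 2 at 0.0574, Kif3a CRISPR replicate 1 at 0.0583 or Kif3a CRISPR replicate 2 at 0.0958) and Lama5 (-1.07, lost without Kif3a CRISPR replicate 1 at 0.0819) were named, with Col25a1 (-0.45, lost without GFP control replicate 2 at 0.141, Kif3a CRISPR replicate 1 at 0.130 or Kif3a CRISPR replicate 2 at 0.0526).

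Channel and receptor genes moved both ways. The shares called were 35.4% of potassium, 30% of TRP, chloride and mechanosensitive, and 20% of sodium and calcium channel genes. Over all tested genes the share was 20.1%. Of 48 tested potassium channel genes (97 in the table), 9 rose and 8 fell, and the left-out counts were 7, 6, 3 and 9 higher and 1, 2, 1 and 4 lower. Kcnd3, which carries A-type current, stood at 144 and 145 CPM in GFP control and at 351 and 274 CPM in Kif3a CRISPR. It rose by 1.11 in log2 (SE 0.153, adjusted p = 0.000546). Kcnq3, a subunit of the M current, stood at 3.29 and 3.26 CPM in GFP control and at 9.55 and 7.71 CPM in Kif3a CRISPR. It rose by 1.40 in log2 (SE 0.205, adjusted p = 0.000798). Kcne1l (0.77) (the older symbol of Kcne5) rose. The list was collected by symbol and holds Kcnq1ot1 and Kcnd3os, which are not channel genes. Kcnd3os, an antisense transcript of Kcnd3, is 1 of the 9 rises (1.30), and with the strand setting not stated its reads cannot be told from those of Kcnd3. Of 30 TRP, chloride and mechanosensitive channels, 4 rose and 5 fell, and the left-out counts were 1, 1, 1 and 2 higher and 5, 4, 2 and 5 lower (7 and 6 without Ofd1 replicate 1). Ano3, an anoctamin, stood at 7.18 and 7.97 CPM in GFP control and at 22.4 and 15.4 CPM in Kif3a CRISPR. It rose by 1.32 in log2 (SE 0.172, adjusted p = 0.000396). Piezo1, a mechanosensitive channel, stood at 27.5 and 33.1 CPM in GFP control and at 14.3 and 18.3 CPM in Kif3a CRISPR. It fell by 0.90 in log2 (SE 0.134, adjusted p = 0.000897). Clcn3 (-0.53) and Lrrc8c (-0.46, lost without Kif3a CRISPR replicate 1 at 0.0619) fell. Of 25 sodium and calcium channel genes, 2 rose and 3 fell, and the left-out counts were 0, 0, 0 and 1 higher and 3, 0, 0 and 3 lower (4 and 4 without Ofd1 replicate 1, 1 and 3 without Ofd1 replicate 2). Scn3b (0.64, lost without GFP control replicate 1 at 0.134, GFP control replicate 2 at 0.113 or Kif3a CRISPR replicate 1 at 0.176) and Cacng5 (-0.80, lost without GFP control replicate 2 at 0.0913 or Kif3a CRISPR replicate 1 at 0.140) were examples.

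Of 17 glutamate receptor genes, 3 rose and 2 fell, and the left-out counts were 2, 2, 1 and 2 higher and 1, 2, 0 and 2 lower. Gria3 (0.80, lost without Kif3a CRISPR replicate 1 at 0.0838) and Gria2 (0.53, lost without GFP control replicate 1 at 0.225, GFP control replicate 2 at 0.124, Kif3a CRISPR replicate 1 at 0.259 or Kif3a CRISPR replicate 2 at 0.0659) rose and Grm4 (-1.49, lost without Kif3a CRISPR replicate 1 at 0.118) and Grid1 (-0.52, lost without GFP control replicate 1 at 0.0854 or Kif3a CRISPR replicate 1 at 0.104) fell. Of 97 synaptic vesicle and scaffold proteins, 14 rose and 10 fell, and the left-out counts were 6, 8, 3 and 11 higher and 7, 6, 4 and 7 lower. Cadps2, which primes dense-core vesicles, stood at 19.3 and 19.2 CPM in GFP control and at 112 and 77.1 CPM in Kif3a CRISPR. It rose by 2.30 in log2 (SE 0.264, adjusted p = 0.000176). Sncb, beta-synuclein, stood at 10.1 and 7.27 CPM in GFP control and at 1.94 and 2.80 CPM in Kif3a CRISPR. It fell by 1.89 in log2 (SE 0.256, adjusted p = 0.000505). Rims3, a release-site protein, stood at 20.7 and 23.8 CPM in GFP control and at 8.12 and 8.89 CPM in Kif3a CRISPR. It fell by 1.39 in log2 (SE 0.153, adjusted p = 0.000147). Of 54 calcium-binding and sensor proteins, 6 rose and 10 fell, and the left-out counts were 3, 2, 1 and 6 higher and 6, 9, 4 and 6 lower, with 1 fall that is foreign RNA. Calb2, calretinin, a marker of some cerebellar neurons, stood at 19.95 and 26.8 CPM in GFP control and at 2.89 and 4.04 CPM in Kif3a CRISPR. It fell by 2.76 in log2 (SE 0.337, adjusted p = 0.000266). Cabp1, a calcium sensor of synapses, stood at 12.8 and 13.3 CPM in GFP control and at 1.25 and 3.94 CPM in Kif3a CRISPR. It fell by 2.38 in log2 (SE 0.410, adjusted p = 0.00213). Camk1g (-1.96) and Necab3 (-0.86) fell.

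Of 67 tubulins and microtubule or growth cone proteins, 12 rose and 3 fell, and the left-out counts were 9, 8, 6 and 8 higher and 0, 1, 0 and 2 lower (14 and 6 without Ofd1 replicate 1, 14 and 5 without Ofd1 replicate 3). The called ones were 22.4% of these members, beside 20.1% of all tested genes. Gap43, a protein of growth cones, stood at 63.5 and 51.2 CPM in GFP control and at 149 and 136 CPM in Kif3a CRISPR. It rose by 1.31 in log2 (SE 0.124, adjusted p = 6.44e-05). Dcx, doublecortin, which binds microtubules in migrating neurons, stood at 167 and 169 CPM in GFP control and at 427 and 319 CPM in Kif3a CRISPR. It rose by 1.15 in log2 (SE 0.127, adjusted p = 0.000145). Dclk3 (1.69) and Nav2 (0.99) rose. Of 14 tested intermediate filament genes (68 in the table), 4 rose and 0 fell, and the left-out counts were 3, 3, 3 and 4 higher and 0, 0, 0 and 0 lower (7 and 0 without Ofd1 replicate 1). Prph, peripherin, stood at 8.85 and 9.67 CPM in GFP control and at 82.2 and 65.9 CPM in Kif3a CRISPR. It rose by 3.00 in log2 (SE 0.458, adjusted p = 0.00101). Nefl, the light neurofilament, stood at 4.13 and 3.51 CPM in GFP control and at 11.5 and 9.06 CPM in Kif3a CRISPR. It rose by 1.43 in log2 (SE 0.188, adjusted p = 0.000400). Synm (1.62, lost without GFP control replicate 1 at 0.0822 or Kif3a CRISPR replicate 1 at 0.142) and Vim (0.37, lost without GFP control replicate 2 at 0.126 or Kif3a CRISPR replicate 1 at 0.132) were the others. Of 35 tetraspanins, claudins and connexins, 6 rose and 3 fell, and the left-out counts were 3, 3, 3 and 3 higher and 1, 2, 1 and 3 lower (8 and 5 without Ofd1 replicate 3). Tspan4 stood at 26.9 and 24.2 CPM in GFP control and at 161 and 119.5 CPM in Kif3a CRISPR. It rose by 2.46 in log2 (SE 0.306, adjusted p = 0.000303). Tspan17 (0.97) and Tspan2 (1.37, lost without GFP control replicate 1 at 0.0514 or Kif3a CRISPR replicate 1 at 0.127) rose and Tspan7 (-0.54) fell.

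**Figure D3:**
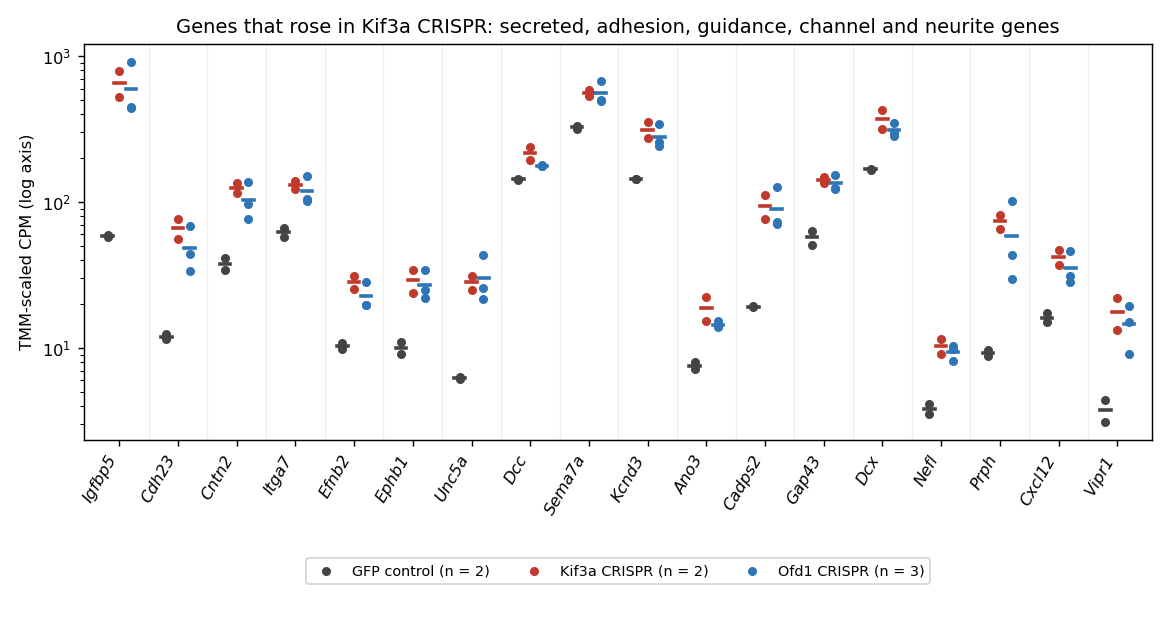
Each point is a library and each short line a group mean, in TMM-scaled CPM on a log axis, for 18 genes that rose in Kif3a CRISPR (red, n = 2) against GFP control (dark, n = 2), with Ofd1 CRISPR (blue, n = 3) beside them. Igfbp5 shows the widest gap, at 59.3 and 57.5 CPM against 786 and 524 CPM.

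The genes named for the size of their rise also included B3galt2 (2.52), Mroh2a (2.58), Slc24a2 (2.15), Trank1 (2.07) and Cmya5 (3.52, lost without Kif3a CRISPR replicate 1 at 0.0634). Those with the smallest adjusted p included Diras2 (1.86), Pik3r3 (1.39), Myh8 (2.16), Chodl (1.26) and Rbmx (0.84). Among the imprinted genes (25 tested), 6 rose and 3 fell, and the left-out counts were 4, 4, 3 and 5 higher and 1, 1, 1 and 2 lower. Plagl1, a zinc finger regulator of imprinted genes, stood at 80.6 and 85.5 CPM in GFP control and at 169 and 143 CPM in Kif3a CRISPR. It rose by 0.91 in log2 (SE 0.0857, adjusted p = 6.44e-05). Peg3 (0.81) and Peg10 (0.69, lost without Kif3a CRISPR replicate 1 at 0.0612) rose as well. Peg13 was called higher too, but it lies within another gene and the strand used in counting is not stated, so its reads cannot be told from those of its host.

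Several metabolic families held larger shares of falls than the 10.9% of all tested genes. Of 21 serine, glycine and folate enzymes, 3 rose and 8 fell, and the left-out counts were 1, 0, 0 and 1 higher and 7, 7, 7 and 7 lower. Aldh1l2, a mitochondrial folate enzyme, stood at 172 and 214 CPM in GFP control and at 18.1 and 32.2 CPM in Kif3a CRISPR. It fell by 2.95 in log2 (SE 0.392, adjusted p = 0.000437). Mthfd2, another mitochondrial folate enzyme, stood at 257 and 277 CPM in GFP control and at 73.9 and 98.5 CPM in Kif3a CRISPR. It fell by 1.63 in log2 (SE 0.226, adjusted p = 0.000575). Shmt2, which converts serine to glycine, stood at 492 and 577 CPM in GFP control and at 229 and 273 CPM in Kif3a CRISPR. It fell by 1.09 in log2 (SE 0.123, adjusted p = 0.000165). In all 3 the groups were apart. Of 30 enzymes of asparagine, proline and transamination, 0 rose and 9 fell, and the left-out counts were 0, 0, 0 and 0 higher and 7, 7, 7 and 8 lower. Cth (-2.00), Gpt2 (-1.61), Aldh18a1 (-1.41) and Bcat1 (-0.85) fell. Asns, asparagine synthetase, stood at 431 and 473 CPM in GFP control and at 119 and 161 CPM in Kif3a CRISPR. It fell by 1.69 in log2 (SE 0.222, adjusted p = 0.000410). Asns, Phgdh, Got1, Pycr1, Aars, Gars, Tars and Slc7a11 were not among the genes named by rule and are given here because their promoters follow or because they complete the pathway. Phgdh (-0.99), Got1 (-0.83) and Pycr1 (-1.96) fell.

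Of 27 amino acid transporters, 1 rose and 10 fell, and the left-out counts were 0, 1, 0 and 1 higher and 8, 6, 6 and 8 lower (2 and 11 without Ofd1 replicate 1, 2 and 9 without Ofd1 replicate 3, 2 and 9 with library totals alone). Slc7a1, a cationic amino acid carrier, stood at 191 and 228 CPM in GFP control and at 70.1 and 97.3 CPM in Kif3a CRISPR. It fell by 1.33 in log2 (SE 0.198, adjusted p = 0.000897). Slc1a4 (-1.35), Slc1a5 (-0.96) and Slc7a11 (-2.56), which carry neutral amino acids or cystine, fell, as did Slc3a2 (-1.16). Of 39 aminoacyl-tRNA synthetase genes, 3 rose and 15 fell, and the left-out counts were 0, 0, 0 and 0 higher and 13, 12, 6 and 15 lower (5 and 16 without Ofd1 replicate 3, 5 and 14 with library totals alone). Sars, the cytosolic seryl-tRNA synthetase, stood at 440.0 and 448 CPM in GFP control and at 204 and 256 CPM in Kif3a CRISPR. It fell by 0.95 in log2 (SE 0.113, adjusted p = 0.000226). Eprs (-0.80), Yars (-0.76), Nars (-0.96), Tars (-0.81), Aars (-0.74) and Gars (-0.65, lost without Kif3a CRISPR replicate 1 at 0.0706) fell. These enzymes load amino acids onto tRNAs.

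For 7 of these genes the RefSeq promoter table (GRCm38.p6) holds the letters TGATGNAA, on either strand, in the 250 bases before the transcript start. TGATGNAA is the form of the composite element bound by C/EBP and ATF factors, known from amino acid response genes. The windows are shown because members of these families fell together, with the match in capitals, read along the gene's strand, and a match that starts with TT lies on the opposite strand.
Asns: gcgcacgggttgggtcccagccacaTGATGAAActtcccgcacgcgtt
Slc7a11: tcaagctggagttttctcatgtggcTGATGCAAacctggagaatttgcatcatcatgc
Slc7a11: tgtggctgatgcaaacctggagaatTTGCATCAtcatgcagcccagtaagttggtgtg
Got1: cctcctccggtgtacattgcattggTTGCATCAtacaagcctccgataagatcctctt
Pycr1: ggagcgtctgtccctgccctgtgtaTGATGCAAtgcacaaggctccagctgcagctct
Aars: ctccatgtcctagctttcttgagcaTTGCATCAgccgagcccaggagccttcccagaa
Gars: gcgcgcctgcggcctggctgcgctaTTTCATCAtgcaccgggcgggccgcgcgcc
Tars: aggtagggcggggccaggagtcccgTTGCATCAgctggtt
The stretches lie at chr6:7693210-7693257 (minus strand) for Asns, chr3:50443647-50443704 and chr3:50443628-50443685 (minus) for Slc7a11, chr19:43524675-43524732 (minus) for Got1, chr11:120643819-120643876 (minus) for Pycr1, chr8:111033705-111033762 (plus) for Aars, chr6:55037946-55038000 (plus) for Gars and chr15:11399659-11399698 (minus) for Tars, all upstream of the annotated transcript start. The Slc7a11 stretches overlap, with matches 66 and 47 bases before the start. The letters occurred in 7 of the 32 genes called lower in these 4 amino acid families that had a window, among 42 called lower, in 1 of 60 such members not called lower, in 239 of 10258 tested genes with a window (2.33%) and in 1134 of all 32851 windows (3.45%). Only 32 of the 42 had a window, under 80%, so the comparison of shares is void. A match is a description of letters and not a site. The files were built on mm9, so no coordinates of theirs were used.

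In glycolysis and pyruvate metabolism, of 42 tested members, 2 rose and 23 fell, and the left-out counts were 2, 1, 1 and 1 higher and 19, 21, 19 and 20 lower (4 and 24 without Ofd1 replicate 1, 4 and 25 without Ofd1 replicate 3, 4 and 23 with library totals alone), with a median of -0.45. Pfkp (-2.78), Pfkfb3 (-1.49), Slc2a1 (-1.42), Slc2a3 (-1.11) and Gys1 (-1.03) fell. They encode 1 form of phosphofructokinase, a regulator of it, glucose carriers and glycogen synthase. Pfkp averaged only 7.20 CPM in GFP control and 1.06 CPM in Kif3a CRISPR, where Pfkl, another form, averaged 217 CPM. Of 24 genes of the tricarboxylic acid cycle, 0 rose and 4 fell, and the left-out counts were 0, 0, 0 and 0 higher and 1, 2, 1 and 3 lower. Pck2 (-1.56) and Ogdhl (-0.50, lost without GFP control replicate 1 at 0.0843 or Kif3a CRISPR replicate 1 at 0.0563) fell. Of 81 respiratory chain genes, 10 rose and 6 fell, and the left-out counts were 5, 1, 9 and 2 higher and 1, 4, 1 and 8 lower. Ndufa4l2, a paralogue of the Ndufa4 subunit, stood at 4.03 and 4.31 CPM in GFP control and at 0.821 and 1.19 CPM in Kif3a CRISPR. It fell by 2.07 in log2 (SE 0.303, adjusted p = 0.000798). Atp5j (0.41) rose. Of 40 nucleotide synthesis genes, 1 rose and 2 fell, and the left-out counts were 1, 0, 0 and 1 higher and 0, 0, 0 and 1 lower (2 and 4 without Ofd1 replicate 3, 3 and 2 with library totals alone).

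Cholesterol, lipid and redox genes were called at shares of 16.1%, 16.5% and 20.3%, against 20.1% of all tested genes. Of 31 cholesterol genes, 5 rose and 0 fell, and the left-out counts were 2, 0, 1 and 2 higher and 0, 1, 0 and 0 lower (8 and 0 without Ofd1 replicate 1, 9 and 0 with library totals alone), and none of its calls held in all 7 fits. Mvd (0.46, lost without GFP control replicate 2 at 0.0541) and Fdft1 (0.33, lost without GFP control replicate 2 at 0.138 or Kif3a CRISPR replicate 1 at 0.0904) were examples. Of 97 fatty acid and lipid genes, 5 rose and 11 fell, and the left-out counts were 0, 0, 0 and 1 higher and 4, 8, 2 and 5 lower (8 and 11 without Ofd1 replicate 1, 8 and 11 without Ofd1 replicate 3). Lpin1 (-0.63), Dgat2 (-0.82) and Lpl (-1.52, lost without Kif3a CRISPR replicate 1 at 0.0985 or Kif3a CRISPR replicate 2 at 0.0684), enzymes of triglyceride handling, fell. Of 59 glutathione and redox genes, 5 rose and 7 fell, and the left-out counts were 2, 4, 1 and 5 higher and 5, 6, 4 and 6 lower. Mt1 (-1.79), Txnip (-0.71), Gstm1 (-0.72) and Hmox1 (-0.53) fell. Of 80 cytosolic ribosomal protein genes, 1 rose and 13 fell, and the left-out counts were 0, 0, 0 and 0 higher and 0, 2, 0 and 19 lower (0 and 8 without Ofd1 replicate 2, 0 and 17 without Ofd1 replicate 3, 2 and 8 with library totals alone). Rpl28 (-0.48, lost without GFP control replicate 1 at 0.0748 or Kif3a CRISPR replicate 1 at 0.102) and Rps15 (-0.37, lost without GFP control replicate 1 at 0.162 or Kif3a CRISPR replicate 1 at 0.182) were examples, and no cytosolic ribosomal call was in all 7 fits. Of 77 mitochondrial ribosomal protein genes, 5 rose and 4 fell, and the left-out counts were 2, 0, 2 and 3 higher and 0, 0, 0 and 4 lower (5 and 2 without Ofd1 replicate 2, 6 and 2 with library totals alone), among them Mrps23 (0.37, lost without GFP control replicate 2 at 0.0524). Of 145 other solute carriers, 14 rose and 19 fell, and the left-out counts were 6, 7, 7 and 6 higher and 13, 12, 7 and 16 lower. Slc16a3, a lactate exporter, stood at 48.5 and 47.1 CPM in GFP control and at 10.02 and 15.2 CPM in Kif3a CRISPR. It fell by 1.93 in log2 (SE 0.150, adjusted p = 1.62e-05). Slc39a11 (1.53), a zinc transporter, rose.

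Of 29 Bcl2 family and caspase genes, 5 rose and 3 fell, and the left-out counts were 0, 2, 0 and 1 higher and 1, 4, 1 and 2 lower (3 and 3 without Ofd1 replicate 2). Bbc3 (-0.98) and Pmaip1 (-0.57, lost without GFP control replicate 1 at 0.106, Kif3a CRISPR replicate 1 at 0.157 or Kif3a CRISPR replicate 2 at 0.0535), which encode the cell death proteins Puma and Noxa, fell. Bcl2l11 (0.48, lost without GFP control replicate 1 at 0.132 or Kif3a CRISPR replicate 1 at 0.193), which encodes the cell death protein Bim, and Birc6 (0.28, lost without GFP control replicate 1 at 0.273, Kif3a CRISPR replicate 1 at 0.158 or Kif3a CRISPR replicate 2 at 0.0718), an inhibitor of apoptosis, rose. Of 90 chaperone genes, 2 rose and 6 fell, and the left-out counts were 2, 2, 2 and 2 higher and 4, 4, 3 and 4 lower (4 and 7 without Ofd1 replicate 1), 8.89% against 20.1% of all tested genes. Ero1l (-1.59), Herpud1 (-0.71) and Hspa9 (-0.49) fell and Dnajc27 (0.48) rose, Ero1l being the older symbol of Ero1a. Replication-dependent histone genes gave 0 calls among 10 tested. Of 31 ABC transporters, 2 rose and 1 fell, and the left-out counts were 0, 1, 0 and 2 higher and 1, 2, 1 and 1 lower (4 and 1 without Ofd1 replicate 1, 4 and 1 with library totals alone).

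**Figure D4:**
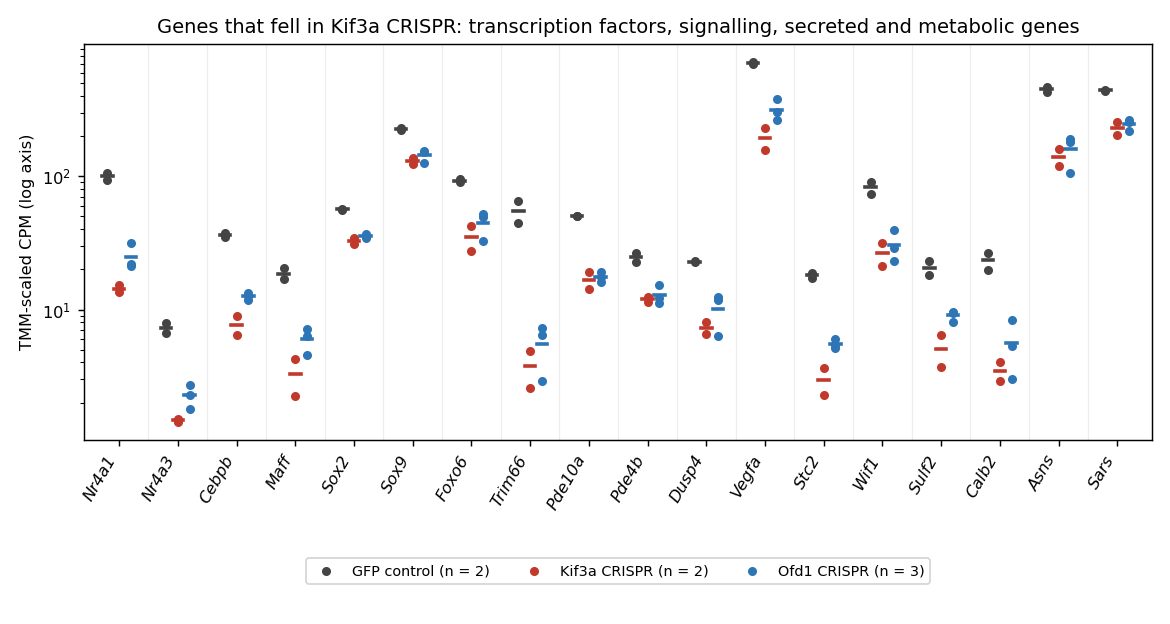
Each point is a library and each short line a group mean, in TMM-scaled CPM on a log axis, for 18 genes that fell in Kif3a CRISPR (red, n = 2) against GFP control (dark, n = 2), with Ofd1 CRISPR (blue, n = 3) beside them. Nr4a1 went from 106 and 94.2 CPM to 13.5 and 15.2 CPM. Both Kif3a CRISPR points lie below both controls for each gene plotted, which the naming rule required of all but Asns.

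Against GFP control, 1532 of the 2584 genes called with the Kif3a guide were called in the same direction with the Ofd1 guide. Both comparisons share the GFP control libraries, which alone makes such agreement more likely. The share of all tested genes called with the Ofd1 guide is not given here, so this overlap has no background beside it. The Kif3a and Ofd1 guides were also compared directly, in a contrast that does not use the GFP control means. Of 12875 genes 23 were called (0.179%), 1 higher and 22 lower with the Kif3a guide, while 1230 had an unadjusted p under 0.05 and DESeq2 called 107. The gene that was higher was Ofd1 itself (log2 difference 0.53, SE 0.0887, adjusted p = 0.0399), which read 21.0, 20.03 and 22.0 CPM with the Ofd1 guide and 31.7 and 29.0 CPM with the Kif3a guide. In GFP control it stood at 22.6 and 23.2 CPM. Against GFP control Ofd1 (0.41, lost without GFP control replicate 1 at 0.103, GFP control replicate 2 at 0.0639 or Kif3a CRISPR replicate 1 at 0.114) rose with the Kif3a guide, while the difference with the Ofd1 guide was -0.12 and did not pass (adjusted p = 0.398), so the RNA level does not check the Ofd1 label. The Kif3a minus Ofd1 call of Ofd1 was lost without GFP control replicate 1 at 0.0946, GFP control replicate 2 at 0.0889, Ofd1 CRISPR replicate 2 at 0.128, Kif3a CRISPR replicate 1 at 0.924 or Kif3a CRISPR replicate 2 at 0.123. Of the 22 lower genes, 8 belong to the glycolysis and pyruvate list, which holds 42 of the 12875 tested genes. These 8 are Gys1, Pdk1, Pfkfb3, Pfkl, Slc16a3, Slc2a1, Slc2a3 and Tpi1. Egln1 and Egln3, also among the 22, encode oxygen sensors. Gipr differed most (log2 difference -2.07, SE 0.333, adjusted p = 0.0338), at 0.561 and 1.35 CPM with the Kif3a guide and 3.89, 2.95 and 4.83 CPM with the Ofd1 guide, a call lost without Ofd1 CRISPR replicate 3 at 0.0829, Kif3a CRISPR replicate 1 at 0.929 or Kif3a CRISPR replicate 2 at 0.0582. P4ha2, a collagen prolyl hydroxylase (log2 difference -1.56, SE 0.189, adjusted p = 0.00460), Apln (log2 difference -1.54, SE 0.181, adjusted p = 0.00426) and Loxl2 (log2 difference -1.41, SE 0.192, adjusted p = 0.00886), a lysyl oxidase of the matrix, followed. The calls of P4ha2 and Apln were lost only without Kif3a CRISPR replicate 1, and that of Loxl2 without Kif3a CRISPR replicate 1 at 0.724 or Kif3a CRISPR replicate 2 at 0.0550. Without Kif3a CRISPR replicate 1, 0 genes were called lower and 0 higher, without Kif3a CRISPR replicate 2 the lower calls numbered 12, and without Ofd1 CRISPR replicate 1 they numbered 44.

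**Figure D5:**
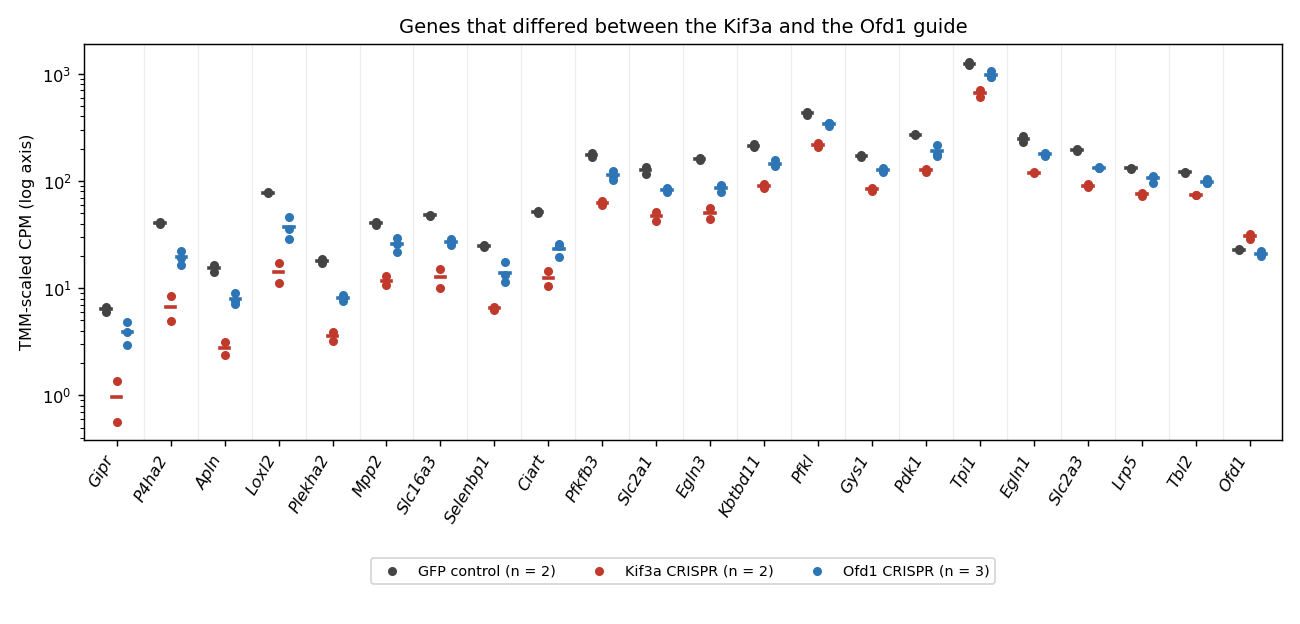
Each point is a library and each short line a group mean, in TMM-scaled CPM on a log axis, for 22 of the 23 genes that differed between the Kif3a guide (red, n = 2) and the Ofd1 guide (blue, n = 3), with GFP control (dark, n = 2). Genes are ordered from the lowest to the highest difference, from Gipr at -2.07 to Ofd1 at 0.53 on the log2 scale.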

How the data were processed

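Poly-A RNA of 7 SMB21 libraries was read as single-end reads of 75 bases from a stranded kit. The deposited table holds raw counts, whole numbers of reads for each symbol in each library, made by the authors. The tools STAR and DESeq2 and the build mm9 come from the submitters' processing notes, which give neither versions nor roles. The counter, annotation, strand setting and filters are not given in the sources used, so overlapping and near-identical genes are uncertain. Genes passing edgeR's filterByExpr (minimum count 10) were fitted in edgeR 4.0.16 (R 4.3.3) with TMM factors and 1 mean per group over all 7 libraries, with 4 residual degrees of freedom. The quasi-likelihood F test was used, the threshold was a Benjamini-Hochberg adjusted p of 0.05, and SE was derived from the F statistic. The tested genes held 99.96% of all counts, the common biological coefficient of variation was 7.43%, and the fit was tested on simulated data. Where the simulated spread differed from gene to gene, the mean share of false calls was above the nominal rate, so calls near the threshold are less certain than their adjusted p. The simulation changed far fewer genes than were called in these data, so its share of false calls need not carry over. Its pass limit was rewritten after a draw failed the first limit. Adjusted p-values are from this edgeR model except where DESeq2 is named.

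The families, marker lists and comparisons were chosen with earlier results of these data known. Named genes were Kif3a and, of the called genes averaging 2 CPM or more, groups not overlapping and no foreign RNA or clone identifier, the 15 largest rises and falls, the 10 smallest adjusted p each way, up to 4 per family by adjusted p, and the 5 largest differences each way between the Kif3a and Ofd1 guides among called genes. The text gives examples from these, and some genes that the rule names are not reported here. Genes named in the comparison of the 2 guides outside that rule, and those said to be so in the text, were chosen after their values were seen. Alternatives were other scalings, no count filter, DESeq2 1.42.0, only the 4 libraries compared, a replicate block, foreign RNA removed, and leaving out each library. Replicate numbers are shared between groups, but no label ties them to a day or culture. The numbers were not taken as pairs, and the closing section gives the check. Promoter letters were read from RefSeq windows of GRCm38.p6, matched by symbol.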

Additional observations from a re-analysis of the deposited data

Results flagged for a closer look

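The genes below differed between the guides: the response with the Kif3a guide and that with the Ofd1 guide were set against each other in edgeR's quasi-likelihood test of Kif3a CRISPR minus Ofd1 CRISPR (adjusted p under 0.05). The GFP control is the same in both responses, so this contrast is the difference of the 2 responses. Ofd1 was higher with the Kif3a guide, by 0.53 on the log2 scale. The other 22 were lower with the Kif3a guide, and 21 of them are given. The largest log2 differences were Gipr -2.07, P4ha2 -1.56, Apln -1.54, Loxl2 -1.41, Plekha2 -1.19, Mpp2 -1.14 and Slc16a3 -1.12. Gipr is a peptide hormone receptor, P4ha2 and Loxl2 modify collagen, and Slc16a3 exports lactate. Next came Selenbp1 -1.11, Ciart -0.91, Pfkfb3 -0.86, Slc2a1 -0.83, Egln3 -0.78, Kbtbd11 -0.69 and Pfkl -0.64. The smallest were Gys1 -0.59, Pdk1 -0.59, Tpi1 -0.57, Egln1 -0.57, Slc2a3 -0.56, Lrp5 -0.48 and Tbl2 -0.42. None of the 23 calls held without Kif3a CRISPR replicate 1. Leaving out Kif3a CRISPR replicate 2 ended 11 of them, Ofd1 CRISPR replicate 2 ended 8, Ofd1 CRISPR replicate 3 ended 3, and either GFP control replicate ended 5, the Ofd1 call among those ended in each case but that of Ofd1 CRISPR replicate 3. The part of these libraries was not tested further.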

How the results depend on the processing

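For Kif3a CRISPR against GFP control, 1183 genes higher and 1401 lower, the counts stayed within 1.5 times under other scalings (1149 and 1420 with RLE size factors, 1486 and 1251 with library totals alone), without the count filter, with foreign RNA removed, with only the 4 libraries compared and with DESeq2 (1051 and 1281). Leaving out 1 library gave 281 to 1478 higher and 405 to 1641 lower. For Kif3a CRISPR against Ofd1 CRISPR, 1 higher and 22 lower, the counts were 5 and 75 without the count filter and 6 and 101 with DESeq2, and leaving out 1 library gave 0 to 6 higher and 0 to 44 lower; the cause was not tested. Deviations from group means correlated over genes at -0.00857 between GFP control and Kif3a CRISPR libraries of the same number. Between GFP control and Ofd1 CRISPR these were 0.199 (number 1) and 0.190 (number 2), against -0.190 for GFP control 1 with Ofd1 CRISPR 2, and between Kif3a CRISPR and Ofd1 CRISPR 0.234 and 0.152, against -0.152 for Kif3a CRISPR 1 with Ofd1 CRISPR 2. In a group of 2 the deviations mirror each other, so these are not independent, and the numbers were not taken as pairs. The replicate block gave 1698 higher and 1877 lower against GFP control and 67 and 124 against Ofd1 CRISPR. Of 248 genes named by the rule, none changed direction under any of these alternatives, and the calls lost numbered 73 without Kif3a CRISPR replicate 1, 39 and 30 when GFP control replicate 1 or 2 was left out, and 18 without Kif3a CRISPR replicate 2. The rule took called genes, mostly with groups not overlapping, so a constant direction was largely fixed in advance and is no support. DESeq2 lost 3 of these calls. Library totals alone, no count filter and leaving out Ofd1 CRISPR replicate 2 each lost 1. With 2 libraries a group, changes well under 2-fold and genes of few counts are the least certain.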
